A study of Mus musculus with 24 samples.

Results

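The loci of 8 transcription factors that set and hold B-lineage identity, *Pax5*, *Ebf1*, *Spi1*, *Spib*, *Ikzf1*, *Ikzf3*, *Ets1* and *Runx1*, were examined for chromatin accessibility in mouse germinal center (GC) B cells. A consensus ATAC-seq peak, an interval where the Tn5 transposase inserted often across the libraries, was taken as a member when it overlapped the gene body of a factor or the 50 kb on either side of it. This rule uses position and no measured value, and it gave 233 of the 65483 consensus peaks: 59 at *Pax5*, 50 at *Ebf1*, 32 at *Ets1*, 29 at *Ikzf1*, 17 each at *Ikzf3* and *Runx1*, 15 at *Spib* and 14 at *Spi1*. All 233 peaks passed the filter on low counts. By position, 132 lay in an intron of the factor, 17 overlapped an exon, 12 lay within 1 kb of a protein-coding start site of the factor, 12 within 1 kb of one of another gene (both called start site peaks below) and 60 lay outside the gene. The factor itself had the nearest protein-coding start site for 180 of the 233 peaks. That share was lowest at *Spib* (3 of 15 peaks), whose window held 6 other genes, and at *Spi1* (5 of 14), whose window held 5.

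Accessibility was measured by Omni-ATAC-seq on GC B cells sorted from the spleens of mice on a C57BL/6J background, 10 days after immunization with sheep red blood cells (SRBC). All mice, controls included, carried 1 copy of Cg1Cre, which drives Cre from the immunoglobulin Cγ1 locus and so acts in activated and GC B cells rather than in the whole B lineage. WT mice carried Cre alone (n = 4), C mice also carried Crebbp fl/+ (n = 4), K mice carried Kmt2d fl/+ (n = 4) and CK mice carried both floxed alleles (n = 5). Each library came from 1 mouse, and 1 wild-type copy of each gene remained in every mutant. Libraries of sorted centroblasts and centrocytes were not analysed here.

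PAX5 and EBF1 commit progenitors to the B lineage, switching on genes of the B cell receptor complex and holding off those of other lineages. PU.1, encoded by *Spi1*, and its close relative SPIB are ETS family factors that bind GAGGAA-centred sites at B cell enhancers and can partly stand in for each other. IKAROS (*Ikzf1*) and AIOLOS (*Ikzf3*) are zinc finger proteins that act within chromatin remodelling complexes, ETS1 is an ETS factor that restrains plasma cell differentiation, and RUNX1 binds DNA with CBFβ and is needed early in B cell development. CREBBP is a histone acetyltransferase that deposits acetyl groups such as H3K27ac, and KMT2D is the methyltransferase that places H3K4me1 at enhancers. The comparisons below ask whether losing 1 copy of either gene, or of both, changes how open the loci of these factors are.

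The central 300 bases of 7 member peaks are given here because the results turn on them: the peak with the largest loss (*Ikzf1* +79.9 kb), the other 3 peaks lost in CK whose call held when each WT or CK mouse was left out in turn (*Ets1* +39.2 kb, *Pax5* +42.6 kb and *Ebf1* +311.1 kb), the peak gained in C and CK (*Ebf1* +78.9 kb), the most accessible peak of *Pax5* intron 5, where an enhancer is known, and the *Spi1* peak nearest to its known upstream regulatory element. That *Spi1* peak lies inside the annotated gene, 249 bp from an alternative start site. Distances run along the gene from the start of its longest protein-coding transcript. Sequences are the GRCm38 (mm10) reference, + strand, 5′ to 3′, and capitals mark a match, on either strand, to one of 5 words: AGGAAGT and GAGGAA for ETS family factors, which share the letters AGGAA and can overlap, CCCNNGGG for EBF1, TGGGAA for IKAROS and TGTGGT for RUNX. No capitals means that none of these words lay in that window.
Ikzf1 intron 7, +79.9 kb, chr11:11765948-11766247: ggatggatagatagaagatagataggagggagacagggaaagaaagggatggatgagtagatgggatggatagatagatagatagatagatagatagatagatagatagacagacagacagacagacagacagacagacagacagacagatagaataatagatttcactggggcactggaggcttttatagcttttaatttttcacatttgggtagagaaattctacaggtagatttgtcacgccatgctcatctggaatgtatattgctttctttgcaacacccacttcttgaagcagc
Ets1 intron 5, +39.2 kb, chr9:32735122-32735421: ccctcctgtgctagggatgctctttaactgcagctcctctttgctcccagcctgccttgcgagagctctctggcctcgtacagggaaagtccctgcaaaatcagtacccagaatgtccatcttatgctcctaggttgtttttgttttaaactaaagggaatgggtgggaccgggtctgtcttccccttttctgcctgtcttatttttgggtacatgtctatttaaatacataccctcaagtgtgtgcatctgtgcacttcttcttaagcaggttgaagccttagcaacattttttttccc
Pax5 intron 5, +42.6 kb, chr4:44667785-44668084: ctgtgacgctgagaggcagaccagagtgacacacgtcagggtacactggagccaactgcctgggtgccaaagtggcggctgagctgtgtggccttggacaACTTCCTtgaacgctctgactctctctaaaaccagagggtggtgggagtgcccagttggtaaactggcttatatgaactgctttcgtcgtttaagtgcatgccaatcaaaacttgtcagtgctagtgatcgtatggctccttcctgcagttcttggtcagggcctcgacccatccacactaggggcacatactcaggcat
Ebf1 intron 10, +311.1 kb, chr11:44928233-44928532: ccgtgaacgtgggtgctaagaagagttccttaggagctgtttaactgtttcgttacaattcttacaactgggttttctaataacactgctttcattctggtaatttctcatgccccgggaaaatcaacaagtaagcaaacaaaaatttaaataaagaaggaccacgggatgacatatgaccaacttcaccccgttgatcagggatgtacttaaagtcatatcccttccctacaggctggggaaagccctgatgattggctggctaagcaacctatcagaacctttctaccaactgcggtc
Ebf1 intron 6, +78.9 kb, chr11:44696018-44696317: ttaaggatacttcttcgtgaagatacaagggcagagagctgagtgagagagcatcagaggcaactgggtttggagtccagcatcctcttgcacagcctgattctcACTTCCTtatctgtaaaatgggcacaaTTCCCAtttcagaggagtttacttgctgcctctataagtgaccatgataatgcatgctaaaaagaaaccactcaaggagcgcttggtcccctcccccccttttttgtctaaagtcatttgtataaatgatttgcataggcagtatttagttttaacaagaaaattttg
Pax5 intron 5, most accessible peak, chr4:44672134-44672433: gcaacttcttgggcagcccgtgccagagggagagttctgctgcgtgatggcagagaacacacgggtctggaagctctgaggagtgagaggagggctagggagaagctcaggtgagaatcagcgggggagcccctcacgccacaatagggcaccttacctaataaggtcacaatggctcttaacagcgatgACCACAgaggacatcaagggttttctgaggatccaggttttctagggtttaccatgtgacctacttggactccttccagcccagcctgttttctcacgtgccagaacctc
Spi1 near an alternative start site, -12.9 kb, chr2:91082997-91083296: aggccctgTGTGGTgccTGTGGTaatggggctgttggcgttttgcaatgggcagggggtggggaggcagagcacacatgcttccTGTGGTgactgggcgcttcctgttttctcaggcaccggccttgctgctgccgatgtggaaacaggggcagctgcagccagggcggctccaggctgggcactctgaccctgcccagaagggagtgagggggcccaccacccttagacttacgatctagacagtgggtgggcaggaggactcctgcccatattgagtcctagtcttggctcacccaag
The *Ikzf1* window opens with a long run of GATA and GACA repeats. The *Spi1* window held 3 matches to the RUNX word, 2 of them close together at its 5′ end. Among all 65483 windows of this length, 14.2% held AGGAAGT, 31.5% GAGGAA, 11.8% CCCNNGGG, 23.5% TGGGAA and 22.9% TGTGGT. The 201 member peaks more than 2.5 kb from any protein-coding start site (distal peaks) held TGGGAA in 31.8% of windows, against 24.4% of all distal windows, and for the other words the shares were AGGAAGT 12.4% against 16.2%, GAGGAA 26.9% against 33.1%, TGTGGT 20.4% against 25.8% and CCCNNGGG 8.96% against 9.06%. A match is a description of the letters and not a bound site.

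Libraries held 17483706 to 21857738 fragments in peaks, and log2 accessibility correlated at 0.979 to 0.989 between mice of a genotype. No pair of libraries of 1 genotype agreed within sampling noise (chi-square per peak at least 1.48). Levels are given as CPM, the fragments in a peak scaled to a fixed library total after TMM correction. Start sites of the GC B cell markers *Bcl6*, *Fas*, *S1pr2*, *Mef2b* and *Rgs13* had a peak, with mean levels in WT and CK of 31.8 and 32.3 CPM at *Bcl6*, 26.7 and 23.99 at *Fas*, 43.4 and 43.6 at *S1pr2*, 102.2 and 97.2 at *Mef2b*, and 48.7 and 38.6 at *Rgs13*. Of 8 T cell markers 5 had no peak at a start site (*Cd3e*, *Cd3g*, *Cd4*, *Cd8a* and *Bcl11b*), and neither did the myeloid genes *Lyz2*, *Itgam* and *S100a8* or the erythroid gene *Gata1*. Peaks did lie at the T cell genes *Cd3d* (28.3 CPM in WT), *Lck* (27.6) and *Tcf7* (6.44). The same held for the myeloid genes *Cebpa* (12.6), *Cd14* (4.94) and *Csf1r* (1.32) and the erythroid gene *Klf1* (46.9). Start sites of 6 follicular or naive B cell genes summed to 166.6 CPM in WT, and those of 4 plasma cell genes to 163.8. These levels give no measure of purity. Summed over their own peaks, *Crebbp* had 45.3 CPM in WT and 50.3 in CK and *Kmt2d* 126.7 and 132.04 CPM, and accessibility gives no check of the genotype labels there. Fragments from Y-linked genes were present in 9 libraries (2 WT, 2 C, 3 K and 2 CK, each at 56.6 CPM or more) and near 0 in the other 8, although the study describes female mice. At the member peaks 1 library of each genotype tended to be highest: replicate 4 of WT at 98 of 233 peaks (42.1%, against 29.2% of all peaks), of C at 89 and of K at 107, and replicate 5 of CK at 77. Values without WT replicate 4 therefore stand beside the member peaks and loci no longer called without it, singly or as part of a range.

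A peak was called where the edgeR quasi-likelihood test, adjusted by Benjamini-Hochberg over all 65483 peaks, gave an adjusted p under 0.01, and is then named lost or gained. In CK 9 of the 233 member peaks (3.86%) were called against WT, 7 lost and 2 gained, where 7.27% of all peaks were called. The losses came to 3% of member peaks against 3.51% of all peaks, and the gains to 0.858% against 3.76%. The share of losses was close to that of the table and the share of gains was smaller. The table mixes classes of peak: its gains were more frequent near start sites, where few member peaks lie, as given below. In K 1 member peak was called, a loss, against 1.7% of all peaks (0.951% lost and 0.751% gained). In C 1 member peak was called, a gain, against 0.128% of all peaks (0.0901% lost and 0.0382% gained). Same-numbered C and WT libraries deviated together, though less so without chromosomes X and Y, and they also matched in Y-linked signal. With the replicate number as a block C had 2 member peaks called, both gains in introns of *Ebf1*. With that block 0.275% of all peaks were called in C. Every comparison with WT uses the same 4 WT mice. Without WT replicate 4 the member count in CK was 4, all losses, while 3.62% of all peaks were called. It was also 4 without CK replicate 2 (all peaks 5.76%) and rose to 16 without CK replicate 5 (all peaks 7.48%). In bulk chromatin, fewer cells with a region open and a region less open in each cell cannot be told apart.

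Counted without a threshold, 152 of 233 member peaks (65.2%) had a log2 fold change below 0 in CK, against 49.4% of all peaks. The median was -0.06, against 0.0029 for all peaks. In C 58.4% of member peaks were below 0 (all peaks 50.1%) with a median of -0.03, and in K 54.5% (all peaks 49.7%) with a median of -0.01. Leaving out each mouse of the genotypes compared moved the median in CK between -0.09 and -0.06. In C it was 0.0082 without WT replicate 4, -0.01 without C replicate 1 and -0.00047 with total counts as library sizes. In K it was -0.05 without K replicate 4 (148 peaks below 0), -0.0019 without K replicate 1, between -0.03 and -0.0045 without single WT mice, so its size rested on single libraries. The loci differed in this: the median in CK was -0.23 over the 17 *Runx1* peaks, -0.14 over the 29 *Ikzf1* peaks, -0.09 at *Ets1*, -0.07 at *Spib*, -0.05 at *Ebf1* and *Pax5*, -0.02 at *Ikzf3* and -0.0077 at *Spi1*. At *Ikzf1* 23 of 29 peaks and at *Runx1* 13 of 17 lay below 0. The 5 CK mice were separated from the 4 WT mice, without overlap, at 15 member peaks as lower and at 3 as higher, together 7.73% of member peaks against 13% of all peaks. The same was seen in K at 12 member peaks (8 lower), against 11.3% of all peaks, and in C at 11 (7 lower), against 5.66%.

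Start site and distal peaks were then read separately. The 24 member peaks within 1 kb of a protein-coding start site had a median log2 fold change of -0.04 in CK where all 13947 such peaks had 0.06. In C these medians were -0.06 and -0.01, with 83.3% of the members below 0 against 56.3%. In K they were -0.0094 and 0.06. The 201 distal member peaks had a median in CK of -0.08 against -0.03 for all 49070 distal peaks, and 65.2% lay below 0 against 54.8%. All 9 called member peaks were distal, 4.48% of the 201 against 6.22% of all distal peaks. Losses were 3.48% of the 201 and 4.21% of all distal peaks. Of all peaks near a start site 11.2% were called but only 1.13% lost, so most calls there were gains. The 201 distal members spread less than distal peaks at large: from the 10th to the 90th percentile the members ran from -0.33 to 0.24 and all distal peaks from -0.40 to 0.38. Member peaks were also the stronger ones, with a median of 9.39 CPM in WT against 4.34 for all peaks and a median length of 1019 against 910 bp. In K the distal members had a median of -0.01 against -0.03 for all distal peaks. In C the distal medians were -0.02 and 0.0071, with 56.7% of the members below 0 against 48.4%.

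**Figure D1:**
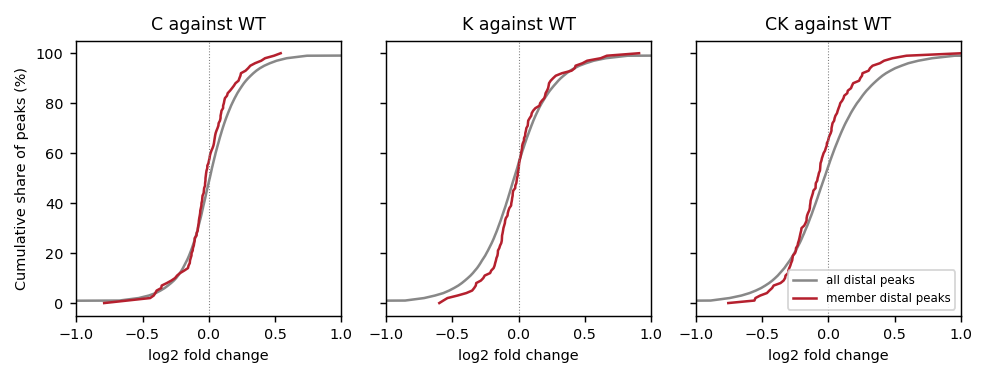
Cumulative share of distal peaks (vertical axis, %) by log2 fold change against WT (horizontal axis) in C, K and CK, for the 201 distal member peaks (red) and all 49070 distal peaks (grey). In CK the red curve crosses 0 at a higher share than the grey one (65.2% against 54.8%) and is steeper, with fewer members at either end.

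**Figure D2:**
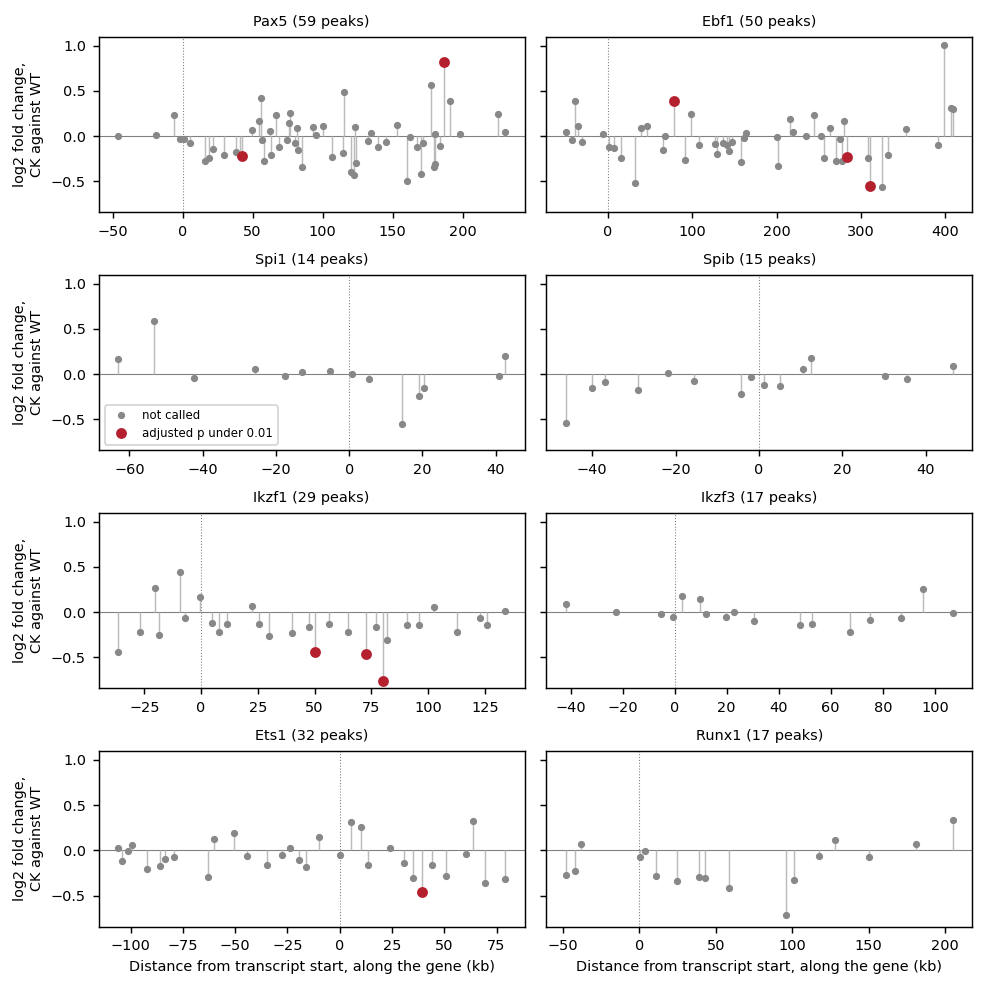
Log2 fold change in CK against WT (vertical axis) for each of the 233 member peaks by its distance along the gene from the transcript start (horizontal axis, kb), 1 panel per locus. Red points are the 9 called peaks, none of them at a start site, and most peaks of *Ikzf1* and *Runx1* lie below 0.

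*Ikzf1*, on chr11:11685003-11772926 (+ strand), encodes IKAROS and was the 1 locus of the 8 called as a whole. The fragments summed over its 29 peaks were 567, 600, 587 and 650 CPM in the 4 WT mice, and 523, 530, 561, 537 and 556 CPM in the 5 CK mice. The C mice had 559, 570, 590 and 610 CPM and the K mice 559, 571, 547 and 561 CPM. The CK values were all under the WT values, the K mice overlapped only the lowest WT mouse, and the C mice spread across the WT range. The log2 fold change was -0.15 ± 0.03 (SE) in CK (adjusted p = 0.00213 over 18045 protein-coding loci), -0.10 in K (0.0639) and -0.05 in C (0.729), and CK against K was -0.05 (0.929). CK against C was -0.10 (adjusted p = 0.0396), short of the threshold. Without WT replicate 4, the highest of the WT mice, the CK value was -0.11 (adjusted p = 0.0221) and no longer called, and over the leave-outs of WT and CK mice it ran from -0.18 to -0.11. The log2 ratio of CK to WT was -0.14 among the mice with Y-linked signal and -0.17 among those without it. As no CK value reached a WT value, the sign of both ratios was fixed. *Ikzf1* was the 1 member locus called in CK, where 12.5% of all loci were called, and 0 of 8 were called by edgeR or DESeq2 in K (2.92% of all loci; 1 of 8 at p under 0.05) or C (0.421%; 0 at p under 0.05).

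Within the gene the largest change was in intron 7, at chr11:11765448-11766749, the repeat-rich window shown above. It held 18.04, 16.9, 18 and 20.4 CPM in WT, 12.7, 13.7, 14.7 and 17.8 in C, 11.5, 13.4, 12.5 and 11.3 in K, against 10.6, 10.6, 13.2, 10.2 and 9.56 in CK. No K or CK mouse reached the lowest WT mouse, and neither did 3 of the 4 C mice. The peak was lost in K (log2 fold change -0.59 ± 0.10, adjusted p = 0.00113) and in CK (-0.75 ± 0.10, adjusted p = 8.18e-06), and both calls held when each mouse of the genotypes compared was left out in turn. In C it was -0.32 (adjusted p = 0.242). CK also differed from C (-0.44, adjusted p = 0.00753) but not beyond the threshold from K (-0.17, adjusted p = 0.794). The nearest start site belongs to the neighbouring gene *Fignl1*.

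A pair of further *Ikzf1* peaks was lost in CK, and both rested in part on WT replicate 4. In intron 3 (chr11:11735183-11737359, +50.1 kb) the WT mice had 12.8, 13.2, 14.1 and 19.5 CPM and the CK mice 9.35, 10.1, 11.3, 12 and 11.8. The log2 fold change was -0.44 ± 0.11 (adjusted p = 0.00455), and -0.29 (0.0552) without WT replicate 4. At +72.8 kb (chr11:11758075-11760032, overlapping an exon) the WT mice had 22.5, 23.8, 23.99 and 33.4 CPM and the CK mice 16.7, 16.96, 19.97, 19.1 and 21.1. Its change was -0.46 ± 0.10 (adjusted p = 0.00364), and -0.32 (0.0211) without WT replicate 4. Both calls were also lost without CK replicate 1 or CK replicate 2 (adjusted p from 0.0118 to 0.0182), although in each peak the CK and WT ranges did not overlap. The start site peak of *Ikzf1* leaned the other way, with a mean of 46.8 CPM in WT and 52.6 in CK (log2 fold change 0.17, adjusted p = 0.066), and was not called. Its distal peaks alone summed to 484.2 ± 35.8 CPM (SD) in WT and 421.9 ± 16.8 in CK.

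**Figure D3:**
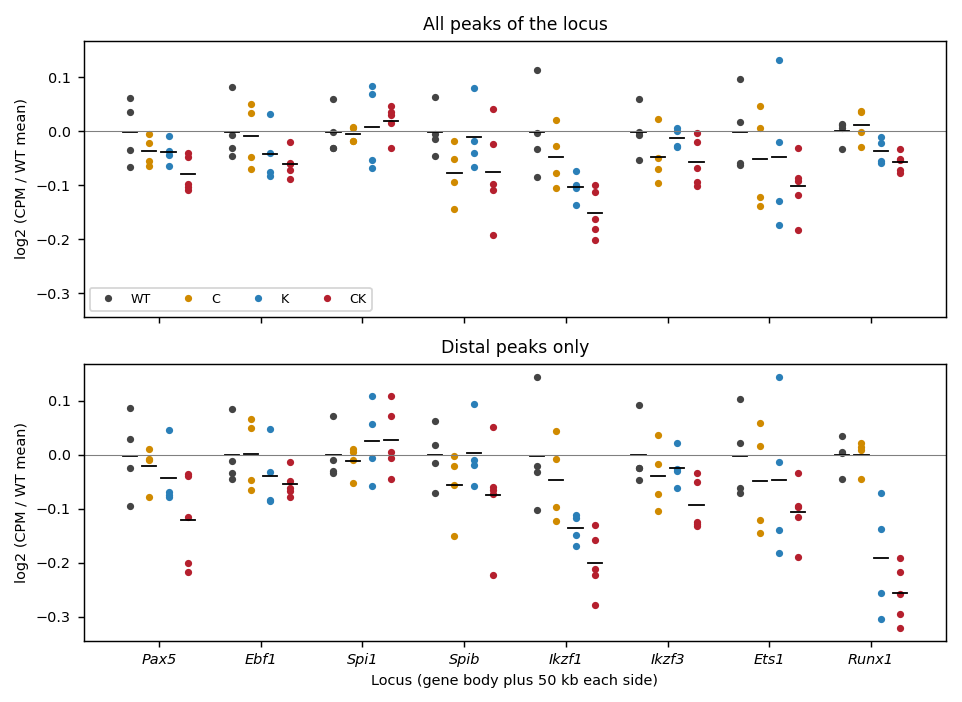
Accessibility of each locus per mouse as log2 of CPM over the WT mean (vertical axis), for all peaks of the locus (top) and its distal peaks only (bottom). Points are mice, bars are genotype means. At *Ikzf1* the highest CK mouse is under the lowest WT mouse in both panels, and over the distal peaks of *Runx1* the same holds for K and CK.

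*Runx1*, on chr16:92601466-92826149 (- strand), showed no called change over its whole locus, with 204.7 ± 3.11 CPM in WT and 196.8 ± 2.43 in CK (log2 fold change -0.06, adjusted p = 0.116). Its strongest peak, at an alternative start site 128.3 kb into the gene, had 56.7 CPM in WT and 61.6 in CK (0.12, adjusted p = 0.0791), opposite in sign to most of the locus. The sum over its 14 distal peaks, an alternative to the full sum whose leave-outs were added after the sums had been seen, was 63.7, 60.3, 62.3 and 62.4 CPM in WT and 62.8, 60.2, 63.1 and 62.5 in C. It was 52.1, 50.3, 59.2 and 56.5 in K and 49.8, 54.4, 52.0, 53.5 and 50.6 in CK. The C mice were level with WT, and the highest K or CK mouse was under the lowest WT or C mouse. The log2 fold change was -0.26 ± 0.05 in CK (adjusted p = 0.000369 over 17116 loci with a distal peak), -0.19 in K (adjusted p = 0.0175) and 0.00 in C (adjusted p = 1.00). CK against C was -0.26 as well (adjusted p = 0.0018). Both CK calls held in every leave-out. On distal sums 13.5% of all loci were called in CK against WT and 2.88% in CK against C. *Ikzf1* was the other member called on this measure (-0.20 ± 0.04, adjusted p = 0.00205), and it too lost the call without WT replicate 4 (-0.15, adjusted p = 0.0164).

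No single *Runx1* peak was called against WT. The peak with the lowest p, which is also its most accessible distal peak, lies in intron 2 at chr16:92800679-92802430 (+24.6 kb). It had 19.2, 16.1, 15.2 and 15.8 CPM in WT, 16.99, 16.6, 19.5 and 16.7 in C, 13.8, 12.3, 13.97 and 11.9 in K, against 13.3, 14.5, 14.1, 13.4 and 10.1 in CK. The log2 fold change was -0.34 in CK (adjusted p = 0.0143, and 0.0074 by DESeq2), -0.35 in K (0.034) and 0.07 in C (0.886). Against C the CK value was -0.41 and called (adjusted p = 0.00767). Here the K and CK mice lay together, below WT and C, which overlapped.

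*Pax5*, on chr4:44524757-44710487 (- strand), had 655.5 ± 27.1 CPM over its 59 peaks in WT, against 639.1 ± 12.5 for C, 638.5 ± 10.2 for K and 620.5 ± 14.2 for CK. In CK the log2 fold change was -0.08 ± 0.03 (adjusted p = 0.0418) and was not called. Over the leave-outs of WT and CK mice it ran from -0.10 to -0.06. In intron 5 the peak at chr4:44667445-44668426 had 49.8, 52.1, 50.2 and 54.2 CPM in WT and 49.5, 51.0, 52.1 and 50.7 in C. The K mice had 47.0, 48.7, 46.7 and 50.8 CPM and the CK mice 43.9, 42.1, 45.9, 45.8 and 42.9. Every CK mouse lay below every mouse of the other genotypes. The peak was lost in CK against WT (-0.22 ± 0.05, adjusted p = 0.00126, held in every leave-out) and against C (-0.20, adjusted p = 0.00725), while K (-0.09, 0.283) and C (-0.02, 0.946) were not called. The most accessible distal peak of *Pax5* (chr4:44671033-44673535), in the same intron, had 91.4 ± 7.23 CPM in WT and 81.2 ± 5.86 in CK, and its change of -0.17 missed the threshold (adjusted p = 0.0221). A weak peak just past the 3′ end was gained in CK (chr4:44522320-44524485, 0.82 ± 0.20, adjusted p = 0.00672). It had 3.57, 1.98, 1.64 and 1.77 CPM in WT and 3.495, 4.52, 3.98, 4.38 and 3.28 in CK, so that 1 WT mouse overlapped CK. That call was lost without WT replicate 2, 3 or 4 or CK replicate 2, 3 or 4 (adjusted p from 0.0128 to 0.0371).

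*Ebf1*, on chr11:44617317-45008091 (+ strand), is the longest of the 8 genes and changed in both directions. Its locus sum was 944.6 CPM in WT, against 939.6 for C, 918.1 for K and 906.4 for CK, and the CK change of -0.06 was not called (adjusted p = 0.176). Over the leave-outs of WT and CK mice that change ran from -0.07 to -0.03. In intron 6 the peak at chr11:44695192-44697144 (+78.9 kb) had 8.67, 7.78, 8.01 and 8.14 CPM in WT, 11.2, 10.5, 13.9 and 11.9 in C, 7.22, 8.27, 9.47 and 8.26 in K, against 9.50, 10.9, 11.9, 10.7 and 10.5 in CK. The mice with a floxed *Crebbp* allele, C and CK, all lay above all WT mice, and K overlapped WT. The peak was gained in C (0.54 ± 0.10, adjusted p = 0.00997, and 0.00286 with the replicate block) and in CK (0.39 ± 0.10, adjusted p = 0.00756), and K against C was -0.52 (adjusted p = 0.00537). In C the value sat at the threshold and the call was lost when any of the 8 WT and C mice was left out (adjusted p from 0.0121 to 0.0653). The CK call was lost without WT replicate 2, 3 or 4 or CK replicate 2, 3 or 4 (0.0145 to 0.0255), and the K against C call without C replicate 1, 3 or 4 or K replicate 1, 2 or 4 (0.0102 to 0.0346). With the block a second intronic peak, chr11:44713595-44717613 (+98.3 kb), was gained in C, from 9.5 to 12.8 CPM (0.43, adjusted p = 0.00947, and 0.106 without the block).

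Further downstream within *Ebf1*, both called peaks were losses. In intron 10 (chr11:44927920-44928846, +311.1 kb) the WT mice had 11.5, 10.5, 11.5 and 10.3 CPM, the C mice 8.50, 8.03, 9.15 and 9.66, the K mice 10.8, 10.3, 8.48 and 12.6, and the CK mice 7.53, 8.83, 7.10, 7.22 and 6.63. Both C and CK lay wholly below WT, while K overlapped it. The CK change was -0.55 ± 0.11 (adjusted p = 0.000647, held in every leave-out), with -0.31 in C (0.336) and -0.05 in K (0.848), and CK against K reached -0.50 without being called (0.0762). In intron 8 (chr11:44899514-44902360, +283.6 kb) the WT mice had 44.4, 41.6, 42.6 and 49.7 CPM and the CK mice 37.2, 36.3, 37.2, 38.5 and 40.9. This loss was smaller (-0.23 ± 0.06, adjusted p = 0.00648). It was no longer called with offsets for the GC content of peaks (-0.15, 0.0406), and the adjusted p was between 0.0122 and 0.0567 without WT replicate 1 or 4 or any of CK replicates 1 to 4. The start site peak of *Ebf1* had 89.7 CPM in WT and 82.8 in CK (-0.11, adjusted p = 0.0635).

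*Ets1*, on chr9:32636221-32757820 (+ strand), had 836.8 ± 44.1 CPM over its locus in WT and 780.0 ± 29.5 in CK (-0.10 ± 0.06, adjusted p = 0.202). Over the leave-outs of WT and CK mice the change ran from -0.12 to -0.07. In intron 5 the peak at chr9:32734852-32735692 (+39.2 kb) had 10.3, 10.9, 10.4 and 11.2 CPM in WT, 9.82, 9.16, 11.1 and 11.5 in C, 8.33, 8.44, 8.53 and 9.32 in K, against 8.32, 7.81, 8.42, 6.82 and 7.55 in CK. The K and CK mice all lay below the WT mice, whereas C spread around them. The peak was lost in CK (-0.46 ± 0.09, adjusted p = 0.00121, held in every leave-out), with -0.30 in K (0.0645) and -0.04 in C (0.94), and CK against C was -0.41 (0.00737). The most accessible distal peak of *Ets1*, in intron 6 at +50.6 kb, had 110.5 ± 9.48 CPM in WT and 90.6 ± 11 in CK, with a change of -0.29 that missed the threshold (adjusted p = 0.0307). The start site peak had 64.2 CPM in WT and 61.7 in CK (-0.06, adjusted p = 0.44).

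**Figure D4:**
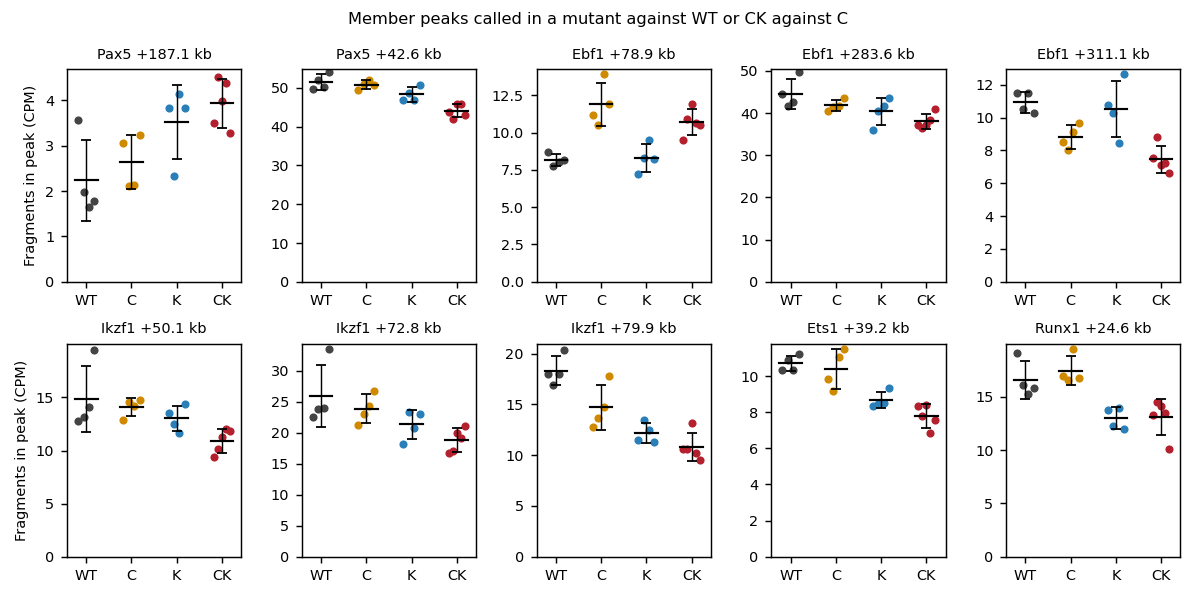
Fragments in peak (vertical axis, CPM, from 0) per mouse for the 9 member peaks called in CK against WT and the *Runx1* intron 2 peak called in CK against C; 2 of the 9 were also called in C or K. Points are mice, and lines are the genotype mean with ± 1 SD (n = 4 for WT, C and K, n = 5 for CK).

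The PU.1 and SPIB loci and that of AIOLOS had no called peak in any mutant. *Spi1* (chr2:91082390-91115756, + strand) was level across the genotypes: its locus sum was 250.2 ± 7.42 CPM in WT, against 249.2 ± 2.49 for C, 251.9 ± 13.99 for K and 253.6 ± 5.35 for CK (0.02 ± 0.03, adjusted p = 0.692), and its sign changed with the GC offsets (-0.04) and over the gene body alone (-0.0087). The peak nearest to the known upstream regulatory element, -12.9 kb from the transcript start and near an alternative start, had 21.5 CPM in WT, 22.6 in C, 21.97 for K and 21.8 for CK, and the start site peak 53.8 CPM in WT and 53.9 in CK (0.0039, adjusted p = 0.973). The lowest p at this locus was for a weak peak inside the neighbouring gene *Rapsn*, with 4.09 CPM in WT and 6.16 in CK (0.59, adjusted p = 0.0111). *Spib* (chr7:44525993-44532071, - strand) had 734.5 ± 23.9 CPM in WT and 697.8 ± 42.9 in CK (-0.07, adjusted p = 0.168), and its start site peak 109 CPM in WT and 107 in CK (-0.04, adjusted p = 0.76). *Ikzf3* (chr11:98464902-98546031, - strand) had 692.1 ± 22.2 CPM in WT and 665.7 ± 20.2 in CK (-0.06, adjusted p = 0.165). Its lowest p was for an exon-overlapping peak at +67.3 kb, with 81.7 ± 8.14 CPM in WT and 70.5 ± 5.22 in CK (-0.21, adjusted p = 0.0139).

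Per kb of peak, the WT level was highest at *Spib* (35.0 CPM per kb), followed by *Ikzf3* (23.02), *Ets1* (19.5), *Spi1* (18.1), *Ikzf1* (14.5), *Ebf1* (12.8), *Pax5* (11.1) and *Runx1* (10.8). Neighbours in this order overlapped between mice for *Ets1* and *Spi1* and for *Pax5* and *Runx1*. The order also depends on the start sites of other genes in each window. At *Spib* 5 of the 15 peaks lay at such start sites and 3 were nearest *Spib*. Its 8 distal peaks held 103.8 of the 734.5 CPM in WT. Over the 8 locus sums, 7 lay below 0 in each of the 3 mutants, with medians, for C, K and CK, of -0.04, -0.04 and -0.07, where all 18045 loci had medians of -0.02, 0.03 and 0.03. With GC offsets the medians of all loci were -0.02, -0.0074 and -0.02, so that the background in K and CK was below 0 as well.

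Beyond WT, the mutants were compared with each other. Against K, CK had 0 of 233 member peaks called by edgeR (18 at p under 0.05, 1 called by DESeq2), and 0.00611% of all peaks were called. The CK change differed from the C and K changes added together on the log2 scale at 0 member peaks (2 at p under 0.05, 0 called by DESeq2), against 0.00764% of all peaks. Against C, CK had 4 member peaks called, all losses, against 1.99% of all peaks: *Pax5* +42.6 kb, *Ikzf1* +79.9 kb, *Ets1* +39.2 kb and *Runx1* +24.6 kb. Each of these calls was lost in most leave-outs: the *Pax5* call without any C or CK mouse except CK replicate 3 (adjusted p from 0.0104 to 0.0273), the *Ikzf1* call without any of these except C replicate 1 or CK replicate 3 (0.0126 to 0.0627), the *Ets1* call without any of these except C replicate 2 or CK replicate 3 (0.0115 to 0.0462), and the *Runx1* call without any of these except CK replicate 2 or 3 (0.0152 to 0.0383). K against C gave 1 member peak, the *Ebf1* +78.9 kb peak, against 0.961% of all peaks. For locus sums, 0 of 8 members were called by edgeR or DESeq2 in CK against K (0% of all loci; 0 members at p under 0.05), CK against C (4.41%; 2 at p under 0.05), K against C (0.992%; 0) and the test of CK against both single mutants added together (0.0333%; 0). At the 7 peaks lost in CK the change was below 0 in C and in K at all 7, with medians of -0.09 in C and -0.19 in K, against at 6 of the 7 it deepened from C to K to CK. The 7 peaks were chosen by their CK value, so this order is given as a description. At each of the 7, and at the *Runx1* intron 2 peak, the CK mice lay below the WT mice both among libraries with Y-linked signal and among those without it.

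The same locus sums were read for other genes of the B cell network. The lists were drawn up from known function, but with earlier results of these data known, so they are no independent support. For scale, 12.5% of all loci were called in CK, 2.92% in K and 0.421% in C. Of 18 further B-lineage factors, 4 were called in CK: *Irf8*, which acts in GC B cells and with PU.1, was lost (-0.17, adjusted p = 0.00581), while *Gfi1* (0.24, adjusted p = 0.00022), *Myb* (0.10, adjusted p = 0.00912) and *Ikzf2* (1.42, adjusted p = 0.00124, from only 0.398 to 1.08 CPM) were gained. Among 10 genes that PAX5 or EBF1 activate, 3 were lost, *Cd22* (-0.15, adjusted p = 0.00116), *Cd79a* (-0.11, adjusted p = 0.00612) and *Blnk* (-0.10, adjusted p = 0.00926), which encode an inhibitory co-receptor, a chain of the B cell receptor complex and its adaptor. All 10 lay below 0 in each of C, K and CK, with medians of -0.06, -0.05 and -0.09, all against the same 4 WT mice. Over all 18045 loci the medians were -0.02, 0.03 and 0.03, and 6841 lay below 0 in CK. With GC offsets that background fell below 0 in K and CK too, as given above. Of 4 genes that PAX5 represses, *Cd28*, a co-stimulatory receptor of T cells, was lost in CK (-0.30, adjusted p = 0.000394) and in K (-0.26, adjusted p = 0.00773). In C, 0 of these 32 loci were called by edgeR (3 of the factors and 2 of the activated genes at p under 0.05). Among all loci 729 were lost and 1521 gained in CK, a split that turned to 2254 lost and 1057 gained with GC offsets, and 174 were lost and 353 gained in K, which became 431 and 203. Without WT replicate 4 the count over the 32 loci in CK was 3 in place of 8. The loci whose level most resembled that of *Ikzf1* over the 17 libraries were *Cd22* (Pearson r = 0.956), *Ffar1* (0.956) and *Ffar3* (0.946), neighbours on chromosome 7 that share peaks, each given as a description.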

How the data were processed

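Mouse GC B cells from 17 mice were profiled by Omni-ATAC-seq. The authors ran the nf-core ATAC-seq pipeline on mm10, called consensus peaks over all libraries and counted fragments per peak with featureCounts 2.0.1. The deposited values are raw counts per consensus peak and per library, and a fragment may count in every peak it overlaps. The counts carry no strand, so a gene and an overlapping antisense gene cannot be told apart.

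All 65483 peaks were fitted with edgeR 4.0.16 in R 4.3.3 (glmQLFit, robust, TMM factors, genotype as the only factor, 17 libraries), and peaks called at adjusted p under 0.01 (Benjamini-Hochberg). A minimum of 10 counts over all libraries removed no peak. CPM used TMM-scaled totals, and fitted log2 fold changes used the default prior count of edgeR. Locus sums added the counts of peaks overlapping each GENCODE protein-coding gene body or its 50 kb flanks, and all 18045 loci were fitted with the library sizes of the peak table. Neighbouring loci share peaks. Named peaks of each member were its start site peak, its most accessible distal peak, every called peak or else that with the lowest p, the *Pax5* intron 5 peak with the highest WT level and the peak nearest to 14 kb upstream of *Spi1*. The script was tested on simulated data. Sequences came from GRCm38 at the coordinates of the file. Of the 8 members 5 had a RefSeq promoter entry, and these were not used.

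Replicate numbers were checked for pairing by correlating deviations between same-numbered libraries. For C and WT the correlations ran from 0.14 to 0.224, every one of the 4 over 0.1. Other pairs of genotypes did not meet this in all 4 pairs. Same-numbered C and WT libraries also matched in the presence or absence of Y-linked signal. Without chromosomes X and Y their correlations were 0.0591 to 0.155, so not every one passed 0.1. The block is given beside C as an alternative, and a pairing of the mice is not established. Alternatives were DESeq2 1.42.0, other size factors and filters, GC and Y-signal terms, other windows and thresholds, and leaving out each mouse. The members and lists were chosen with earlier results of these data known. Leave-outs and GC offsets for distal-only locus sums were added after seeing the data. P-values test a difference between genotypes against the spread between mice, which was estimated with information shared over all peaks or loci. Part of the GC B cell marker list is not reported here.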

Additional observations from a re-analysis of the deposited data

Results flagged for a closer look

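In 10 of 148 groups of mice checked among the named peaks and loci, 1 mouse stood further from the others than Dixon's 95% critical value allows, where chance gives about 7.4. WT replicate 4 was the highest of its group at the *Pax5* start site peak (130.6 CPM, others 118.7 to 120.4), at the *Ikzf1* peak at +72.8 kb (33.4 CPM, others 22.5 to 24.0) and at the most accessible distal peak of *Ets1* (124.6 CPM, others 104.8 to 107.3). K replicate 4 was highest at the same *Ets1* peak (119.2 CPM, others 96.7 to 98.8) and at the most accessible distal peak of *Spib* (31.1 CPM, others 26.1 to 26.7), and C replicate 4 at the *Ikzf3* start site peak (71.9 CPM, others 60.4 to 62.1). C replicate 3 was lowest at the *Napsa* start site peak in the *Spib* window (65.2 CPM, others 69.5 to 70.0) and highest at the *Runx1* intron 2 peak (19.5 CPM, others 16.6 to 16.99), where CK replicate 5 was lowest (10.1 CPM, others 13.3 to 14.5). CK replicate 3 was highest at the *Ikzf1* intron 7 peak (13.2 CPM, others 9.56 to 10.6), and that peak was lost in CK with or without this mouse.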

How the results depend on the processing

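Counts of member peaks called moved as follows, and the cause was not tested unless the setting itself gives it. In C (1 called, a gain) the count was 0 with DESeq2 size factors, with total counts, with filterByExpr and with a fold over 1.5, and 2 with flanks of 100 kb. In K (1 called, a loss) it was 3 by DESeq2 (2 gained), 2 with only the genotypes compared (1 gained), 5 at adjusted p under 0.05 (3 lost, 2 gained) and 0 among peaks nearest a member start site. In CK (9 called, 7 lost, 2 gained) it was 16 by DESeq2 (12 lost, 4 gained), 29 at adjusted p under 0.05 (24 lost, 5 gained) and 2 with a fold over 1.5 (1 lost, 1 gained). By DESeq2 3.29% of all peaks with an adjusted p were called in K and 8.73% in CK. With only the genotypes compared the share of all peaks called in K was 1.54%. In C it was 0.124% with DESeq2 size factors, 0.107% with total counts and 0.128% with filterByExpr. No share of all peaks is given here at adjusted p under 0.05, at a fold over 1.5, for other windows or between mutants. Those counts describe how the member count moved and do not set the members against the table. Gains in CK were 1 within gene bodies alone and 5 with flanks of 100 kb. CK against K gave 1 by DESeq2. CK against C (4) gave 7 with the Y term, 2 with GC offsets, 0 with only the genotypes compared, 11 at adjusted p under 0.05 and 0 with a fold over 1.5. K against C (1) gave 2 by DESeq2, 2 with only the genotypes compared, 6 at adjusted p under 0.05 and 0 with a fold over 1.5.

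The replicate number as a block pairs at most C and WT by the check above, and uses no CK replicate 5 pair. With it calls were 2 in C (2 gained), 5 in K (3 lost, 2 gained), 29 in CK (25 lost, 4 gained), 13 in CK against C and 3 in K against C. Of all peaks, 0.275% were called with the block in C, 3.76% in K and 10.7% in CK. Member loci called in CK were then 3 (*Pax5* -0.09, *Spib* -0.10 and *Ikzf1* -0.16), in CK against C 1, and the 32 context loci 17. No share of all loci, or of all peaks between mutants, is given with the block. Those counts therefore do not set the members against the table. Between CK and WT same-numbered correlations ran from -0.06 to 0.192, and 2 of 4 libraries correlated best with their own number.

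Member loci called in CK (1) were 2 with GC offsets, 2 on distal peaks only and 2 at adjusted p under 0.05, and in CK against C (0) 1 on distal peaks only and 1 at adjusted p under 0.05. The *Spi1* locus changed sign in CK, from 0.02 to -0.038 with GC offsets and -0.0087 over gene bodies alone. Context loci called in CK (8) were 13 with GC offsets, 4 over gene bodies alone and 5 on distal peaks only. On distal peaks only 13.5% of all loci were called in CK and 2.88% in CK against C. The split of all loci with GC offsets is given above, and no share of all loci is given for the other settings.

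Leaving out 1 mouse of the genotypes compared at a time, calls ran from 0 to 0 in C (1 without K replicate 1, K replicate 3 or CK replicate 5, which enter only the spread), 1 to 2 in K (0 to 1 gained), 4 to 16 in CK (4 to 13 lost, 0 to 3 gained), 0 to 5 in CK against C and 0 to 1 in K against C, with 0 to 1 member loci and 3 to 7 context loci in CK. Leaving out WT replicate 4 or CK replicate 2 gave the lowest count of peaks in CK (4 each) and leaving out CK replicate 5 the highest (16). Of all peaks 3.62%, 5.76% and 7.48% were called in these leave-outs, in that order. Single values changed direction in 2 of the recomputed cases and lost their call in 81, most by leaving out a mouse. Depth was a median of 164 fragments per member peak and library.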
